A study of Homo sapiens with 6 samples.

Results

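Mitotic entry and exit are driven by a small set of regulators, and 10 of their genes were followed here: CDK1, CCNB1, CCNB2, CDC25A, CDC25B, CDC25C, PLK1, CDC20, UBE2C and PTTG1. They were taken from the deposited gene counts by symbol, and all 10 were found among the 19655 genes listed and passed the filter on low counts. The libraries are total RNA of HCT116, labelled as a colon cancer cell line and grown in DMEM with serum. In 3 control libraries the cells carry the label NC, and in 3 libraries they were transfected with ASO-SNORA67, an antisense oligonucleotide meant to lower the small nucleolar RNA SNORA67. The sources used here do not state what the NC cells received, at which dose ASO-SNORA67 was given or when the cells were harvested. Separate cultures behind the libraries of a group are not stated either, so p-values here measure the spread between libraries alone, and that spread may be technical. The question the design puts is what changes in the transcriptome when SNORA67 is targeted.

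Entry into mitosis depends on the kinase CDK1 bound to a B-type cyclin, encoded by CCNB1 or CCNB2. The phosphatases of the CDC25 family switch the complex on by removing inhibitory phosphates, and the kinase PLK1 helps to start and maintain this switch. Exit depends on the anaphase-promoting complex (APC/C), a ubiquitin ligase that CDC20 activates and that works with the ubiquitin-conjugating enzyme UBE2C. It marks cyclin B and securin, the separase inhibitor encoded by PTTG1, for destruction. In dividing cells most of these genes are transcribed late in the cycle, through promoter elements that include CCAAT boxes and a cell cycle homology element.

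The promoters of the regulators share short sequences, which are shown for genes that fell and for genes that did not pass the test. Promoter sequences of RefSeq (build GRCh38.p14) were listed for 9 of the 10 genes. The letters CCAAT, searched on both strands, occurred within 100 bases before at least 1 listed start in 9 of 9 genes, against 25.6% of 15226 genes of the deposited counts with a listed promoter. The letters TTTGAA or TTCGAA, which are forms of the cell cycle homology element, occurred there in 6 of 9 genes (CDC20, CCNB2, PLK1, CDC25B, CDC25C and CDK1), against 5.27% of the 15226 genes. No other form of the element was searched for, so a gene without a match may hold another form. CDC25B, CDC25C, CDK1 and PTTG1 have more than 1 listed start, which gives more chances of a match. In each of these genes at least 1 start lacked both elements within 100 bases. The 100 bases before the start are given 5′ to 3′ for 5 genes, of which CCNB1, CCNB2 and PTTG1 fell and PLK1 and CDC20 did not pass the test. CCAAT (or ATTGG) and TTTGAA (or TTCAAA) are in capitals, and in PTTG1 the matches to CCAAT on the 2 strands overlap.
CCNB1, chr5:69167050-69167149, plus strand: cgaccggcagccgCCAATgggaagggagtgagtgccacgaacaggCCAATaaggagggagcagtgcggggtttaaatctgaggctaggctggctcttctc
CCNB2, chr15:59105046-59105145, plus strand: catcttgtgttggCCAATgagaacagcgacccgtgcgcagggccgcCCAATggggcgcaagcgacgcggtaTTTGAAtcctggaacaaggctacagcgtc
PTTG1, chr5:160421755-160421854, plus strand: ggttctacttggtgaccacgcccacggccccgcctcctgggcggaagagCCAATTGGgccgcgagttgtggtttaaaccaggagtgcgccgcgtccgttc
PLK1, chr16:23678789-23678888, plus strand: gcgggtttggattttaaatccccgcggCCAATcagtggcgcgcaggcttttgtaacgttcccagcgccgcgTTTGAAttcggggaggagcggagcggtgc
CDC20, chr1:43358881-43358980, plus strand: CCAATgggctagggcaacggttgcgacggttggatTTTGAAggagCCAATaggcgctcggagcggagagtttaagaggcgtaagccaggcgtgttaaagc
CCNB2, which fell, and PLK1, which did not pass the test, both hold TTTGAA with its first base 29 bases before the start. Whether these letters bear on either result was not tested. The CDC20 promoter holds it 65 bases before the start, between CCAAT boxes. A match is a description of letters, not evidence that a factor binds there.

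Levels are given as CPM, counts per 1000000 with library sizes scaled by TMM (trimmed mean of M values), and ASO was compared with NC by edgeR's quasi-likelihood test with Benjamini-Hochberg adjustment over all 14062 genes tested, at a threshold of 0.05. Of the 10 regulators, 3 fell (CCNB1, CCNB2 and PTTG1), 1 rose (CDC25A) and 6 did not pass. Over all genes tested 46% passed, 19.1% lower and 26.8% higher in ASO, so 4 of 10 is near the share among all genes. The same 4 regulators had groups that did not overlap, 3 with ASO below and 1 with ASO above, where 57.6% of all genes had groups that did not overlap, 25.9% below and 31.6% above. The median log2 fold change of the 10 was -0.27, beside 0.01 over all genes tested. The count of regulators that fell was 5 without ASO replicate 2, with CDK1 and CDC25C added, and the count that rose was 0 without ASO replicate 1 and without ASO replicate 3. Without ASO replicate 2 the count that rose was 1, with UBE2C called (edgeR adjusted p = 0.0457) and CDC25A not (edgeR adjusted p = 0.132). With the trend of GC content and length in each library as an offset, 2 fell (CCNB2 and PTTG1) and 2 rose (CDK1 and UBE2C), so the calls of CCNB1 and CDC25A ended. Over all genes tested 3153 fell and 4261 rose with this offset.

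**Figure D1:**
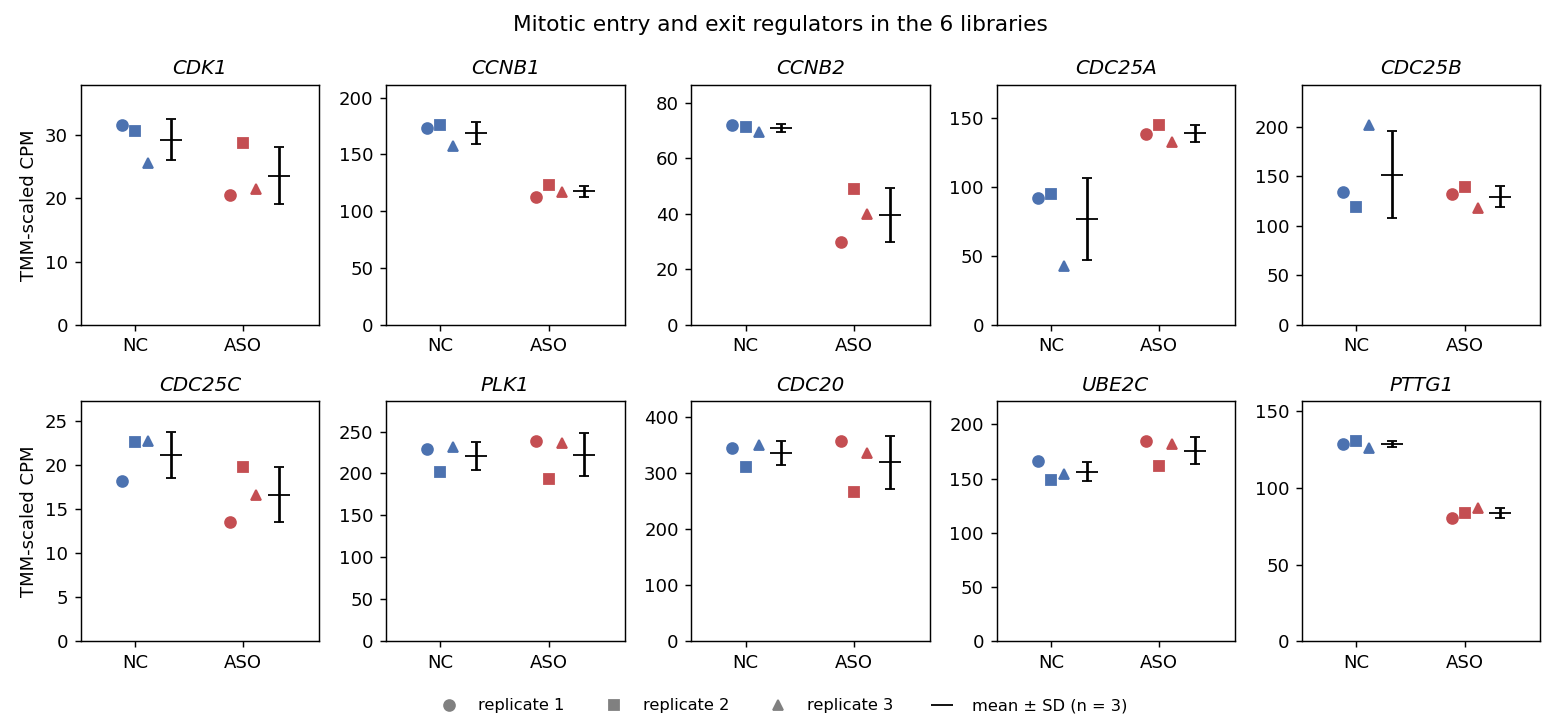
TMM-scaled CPM (y axis, from 0) of each regulator in the 3 NC (blue) and 3 ASO (red) libraries, with the replicate number as the symbol and the mean ± SD in black. CCNB1, CCNB2 and PTTG1 sit lower in all 3 ASO libraries, CDC25A sits higher, and the other 6 overlap.

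CCNB1, the main cyclin partner of CDK1 (chromosome 5, 69167135 to 69178245, hg38), was at 173, 176 and 158 CPM in NC replicates 1 to 3 and at 113, 123 and 117 CPM in the ASO libraries. All 3 ASO values lie below the lowest NC value. The fall was 1.44-fold (log2 fold change -0.52, SE 0.09, edgeR adjusted p = 0.00202). With GC and length offsets it was -0.14 and no longer passed (edgeR adjusted p = 0.173). CCNB2 (chromosome 15, 59105146 to 59125045), the second B-type cyclin, was at 72.1, 71.3 and 69.4 CPM in NC, and the ASO libraries were at 29.7, 49.1 and 40.05 CPM. The NC values lie close together and the ASO values, all below them, spread widely, with replicate 1 lowest and replicate 2 highest. Its fall was 1.79-fold (log2 fold change -0.84, SE 0.17, edgeR adjusted p = 0.00601).

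CDK1, the catalytic subunit (chromosome 10, 60778331 to 60794852), did not pass the test. It was at 31.7, 30.6 and 25.7 CPM in NC, and the ASO libraries were at 20.5, 28.8 and 21.5 CPM. ASO replicate 2 lies among the NC values and the other ASO libraries lie below them. The log2 fold change was -0.31 (SE 0.17, edgeR adjusted p = 0.162). Without ASO replicate 2 it was -0.48 and passed (edgeR adjusted p = 0.0257), and with GC and length offsets it passed in the other direction, at 0.43 (edgeR adjusted p = 0.0162).

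Of the 3 CDC25 phosphatase genes, CDC25A rose and the other two did not pass the test. CDC25A (chromosome 3, 48157146 to 48188417), which also acts at the start of DNA synthesis, was at 92.0, 95.2 and 42.3 CPM in NC, and the ASO libraries were at 139, 145 and 133 CPM. NC replicate 3 stands far below the other NC libraries, and the ASO libraries lie close together above all of them. The rise was 1.82-fold (log2 fold change 0.86, SE 0.27, edgeR adjusted p = 0.0343). Without NC replicate 3 it was smaller, 0.56 on the log2 scale, but still passed (edgeR adjusted p = 0.00692). The call ended without ASO replicate 1, 2 or 3, at edgeR adjusted p of 0.0974, 0.132 and 0.0757, and when genes with low counts were kept, at 0.0546.

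CDC25B (chromosome 20, 3786772 to 3806121), which acts early in the entry into mitosis, was at 134, 119 and 202 CPM in NC, and the ASO libraries were at 132, 139 and 118 CPM. Here NC replicate 3 is the highest of all 6 libraries, and the groups otherwise overlap. The log2 fold change was -0.23 (SE 0.19, edgeR adjusted p = 0.353) and turned to 0.02 without NC replicate 3 (edgeR adjusted p = 0.91). CDC25C (chromosome 5, 138285269 to 138338355), which amplifies CDK1 activation, was at 18.2, 22.6 and 22.7 CPM in NC, and the ASO libraries were at 13.5, 19.8 and 16.6 CPM. The groups overlap through NC replicate 1 and ASO replicate 2. Its log2 fold change was -0.35 (SE 0.18, edgeR adjusted p = 0.151), and without ASO replicate 2 it was -0.49 (edgeR adjusted p = 0.046). FAM53C shares 845 bases of its span with CDC25C on the other strand and was at 104 ± 18.4 CPM in NC, with 129 ± 8.63 CPM in ASO (SD, n = 3 each), and without a stated strand setting reads in the shared stretch cannot be told apart.

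PLK1, the polo-like kinase (chromosome 16, 23678889 to 23690367), was at 229, 202 and 231 CPM in NC, and the ASO libraries were at 238, 193 and 236 CPM. The groups overlap throughout, with replicate 2 lowest in each. The log2 fold change was 0.01 (SE 0.11, edgeR adjusted p = 0.932), and its sign turned when libraries were scaled by the upper quartile or by their totals. ERN2, on the other strand, shares 58 bases with PLK1. It was at 0.053 ± 0.091 CPM in NC, with 1.55 ± 0.48 CPM in ASO (SD, n = 3 each), and was called higher (edgeR adjusted p = 0.00746). Near 0 in NC, ERN2 passed the filter on low counts through the ASO libraries, so it could only be called higher.

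On the exit side, CDC20, the APC/C activator (chromosome 1, 43358981 to 43363203), was at 344, 311 and 351 CPM in NC, and the ASO libraries were at 356, 265 and 336 CPM. ASO replicate 2 is the lowest of the 6 and ASO replicate 1 the highest. The log2 fold change was -0.07 (SE 0.12, edgeR adjusted p = 0.65). UBE2C (chromosome 20, 45812576 to 45816957) was at 166, 149 and 154 CPM in NC, and the ASO libraries were at 184, 161 and 182 CPM. ASO replicates 1 and 3 lie above all NC libraries, and ASO replicate 2 lies below NC replicate 1. The log2 fold change was 0.17 (SE 0.09, edgeR adjusted p = 0.166), and it passed without ASO replicate 2, at 0.22 (edgeR adjusted p = 0.0457), and with GC and length offsets, at 0.21 (edgeR adjusted p = 0.0179). The annotation lists 4 pseudogene copies of UBE2C and 1 each of CDC20 and CCNB2, and 0 of them are listed in the deposited counts, so a split of reads with them cannot be checked.

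PTTG1, encoding securin (chromosome 5, 160421855 to 160428739), was the regulator with the smallest p. It was at 129, 130 and 126 CPM in NC, and the ASO libraries were at 80.2, 83.5 and 87.0 CPM. Both groups are tight and lie well apart. The fall was 1.54-fold (log2 fold change -0.62, SE 0.08, edgeR adjusted p = 0.000788). CCNB1, CCNB2 and PTTG1 thus fell while CDC20 and UBE2C, which direct the destruction of their proteins, did not pass the test.

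**Figure D2:**
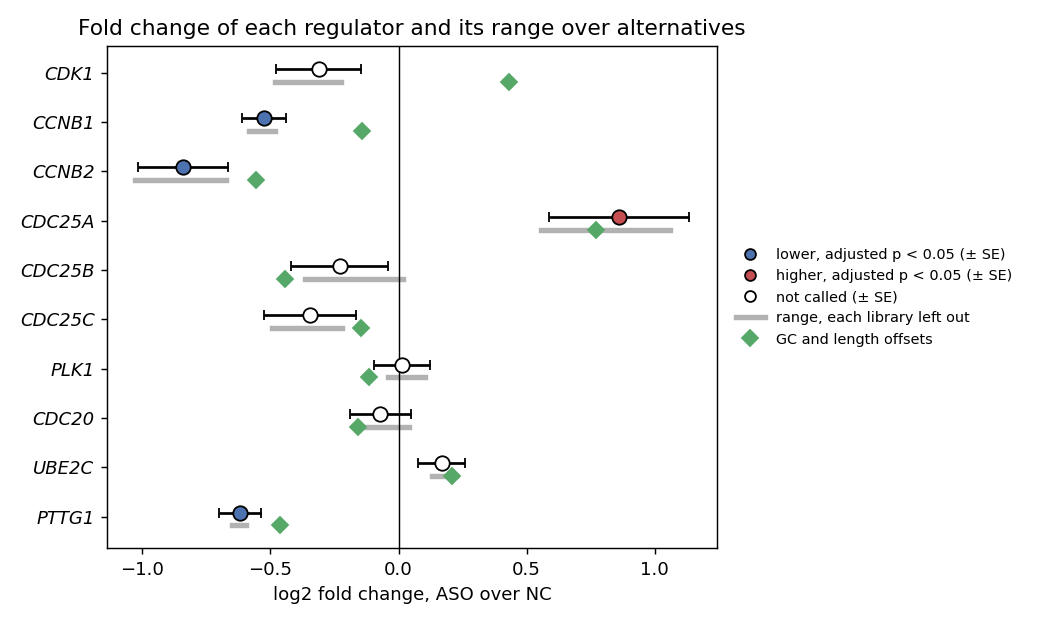
Log2 fold change of ASO over NC for each regulator (circles, ± SE; filled where the edgeR adjusted p was below 0.05), the range when each library was left out (grey bars) and the value with GC and length offsets (green diamonds). CCNB2 and PTTG1 stay below 0 by every measure drawn, while CDK1 goes from -0.31 to 0.43 with the offsets.

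Levels between genes were compared per length, as counts divided by the length of the principal GENCODE 29 transcript and scaled to the same sum in each library, so that these values are on another scale than CPM. CDC20 (428 ± 23.1) and UBE2C (418 ± 24.7) were the most abundant in NC and overlapped each other (SD, n = 3). PTTG1 followed at 272 ± 7.56, then PLK1 at 225 ± 15.03, CCNB1 at 177 ± 12.4, and CCNB2 at 103 ± 3.15, each apart from its neighbours except that CCNB2 overlapped CDC25B, next at 95.4 ± 26.5. CDC25A stood at 46.0 ± 18.2 and overlapped CDK1 at 34.8 ± 4.15, and CDC25C was lowest at 22.5 ± 2.69. In ASO, UBE2C stood first at 483 ± 23.2 and CDC20 next at 419 ± 53.2, and they overlapped again. PLK1 (233 ± 21.2) stood above PTTG1 (182 ± 8.89) there, the reverse of their order in NC. CDC25A (85.9 ± 5.66), CDC25B (84.2 ± 8.60) and CCNB2 (59.7 ± 16.0) took neighbouring places in ASO, and each overlapped at least 1 of the others.

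Ratios of related genes within a library need no scaling to depth. They were compared by an exact two-sided permutation test over 3 against 3 libraries, which cannot give a p below 0.1, with adjustment over the 5 ratios. CDC25A over CDC25C, as log2 of the counts plus 2, was 2.34, 2.07 and 0.90 in NC and 3.36, 2.87 and 2.998 in ASO, a difference of 1.31 (exact p = 0.1, adjusted p = 0.125). CDC25A over CDC25B was -0.54, -0.32 and -2.26 in NC and 0.07, 0.06 and 0.18 in ASO, a difference of 1.15 (exact p = 0.1, adjusted p = 0.125). In both ratios NC replicate 3 is the lowest library, and the groups do not overlap with or without it: the differences without it were 0.87 and 0.54. CDC25B over CDC25C overlapped between the groups, with a difference of 0.16 (exact p = 0.6, adjusted p = 0.6).

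CCNB1 over CCNB2 was 1.27, 1.30 and 1.18 in NC and 1.92, 1.32 and 1.55 in ASO. The ASO libraries lie above the NC libraries, ASO replicate 2 by little, and the difference was 0.35 (exact p = 0.1, adjusted p = 0.125). CDC20 over FZR1, its relative that activates the APC/C later in mitosis and in G1, was 3.25, 3.36 and 3.01 in NC and 2.29, 1.98 and 2.26 in ASO. This ratio was 2.03-fold lower in ASO with no overlap (exact p = 0.1, adjusted p = 0.125). FZR1 itself was at 36.7 ± 6.62 CPM in NC, with 69.9 ± 2.77 CPM in ASO, a rise of 1.90-fold (edgeR adjusted p = 0.0015).

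**Figure D3:**
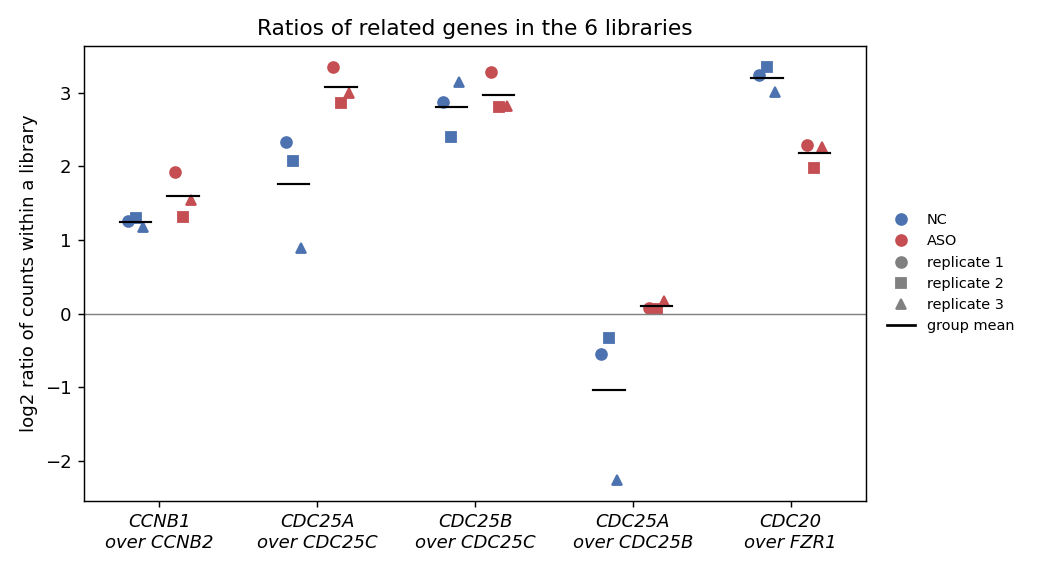
Log2 ratio of the counts of 2 related genes (y axis) in each NC (blue) and ASO (red) library, with black bars at the group means and the replicate number as the symbol. The ratio of CDC20 to FZR1 is lower in every ASO library, from 1.98 to 2.29 against 3.01 to 3.36 in NC, and NC replicate 3 stands apart in both ratios with CDC25A.

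Genes that work with the regulators were taken from 7 lists. Of 87 listed genes 86 were tested, CCNB3 being too low, and 28 fell and 8 rose, with a median log2 fold change of -0.24. These are 32.6% lower and 9.30% higher, beside 19.1% and 26.8% over all genes tested. The count that fell was 16, 15, 16 and 13 without NC replicate 1, NC replicate 2, ASO replicate 1 and ASO replicate 3. Over all genes the count that fell went from 2692 to 1755, 1850, 2151 and 1764 in the same fits. The count of the listed genes that rose was 4 without ASO replicate 3, where over all genes 3128 rose, against 3772 with all libraries. With GC and length offsets 26 of the listed genes fell and 18 rose, where over all genes tested 3153 fell and 4261 rose. With these offsets 13 of the 36 calls ended, among them those of CKS2, WEE1, PKMYT1, ENSA, YWHAQ, ANAPC16, MAD2L1, BUB3, STAG1, RBBP4, TFDP1 and PCNA.

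Among 15 genes of CDK1 control 2 fell, 2 rose and 11 did not pass (median -0.12). CKS2, a small subunit bound by CDK1, fell 1.60-fold to 104 ± 1.85 CPM (edgeR adjusted p = 0.000355). WEE1 and PKMYT1, the kinases that place the inhibitory phosphates on CDK1, rose 1.63-fold and 1.41-fold (edgeR adjusted p = 0.0357 and 0.0401). The call of WEE1 ended without NC replicate 1 or 3 or without ASO replicate 2 or 3, and that of PKMYT1 without NC replicate 2 or 3 or ASO replicate 1 or 3, at edgeR adjusted p of 0.0634 to 0.125. ENSA, a phosphatase inhibitor that acts when phosphorylated by the Greatwall kinase, fell 1.18-fold (edgeR adjusted p = 0.0373), a call that ended without any 1 of 4 libraries. The ENSA call also ended on all 6 libraries with DESeq2 (DESeq2 adjusted p = 0.0561) and with counts divided by 4 (edgeR adjusted p = 0.0529). CCNA2, the cyclin A gene, was at 45.4 ± 7.17 CPM in NC, with 41.8 ± 4.28 CPM in ASO, and did not pass. The 14-3-3 genes, whose proteins hold phosphorylated CDC25 away from CDK1, had 3 lower and 0 higher of 7 (median -0.27). On the same 6 libraries edgeR, DESeq2 and limma-voom each found a rise at an unadjusted p under 0.05 in 0 of them. The share of all genes that rose at that threshold was not counted. The 3 that fell were YWHAE (1.36-fold), YWHAQ (1.42-fold) and YWHAH (1.203-fold), and each lost its call when any of at least 3 libraries was left out. The YWHAH call also ended on all 6 libraries under another scaling, RLE (edgeR adjusted p = 0.0577), and with counts divided by 4 (edgeR adjusted p = 0.0611).

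Of the 14 APC/C subunit genes 4 fell, 0 rose and 10 did not pass (median -0.24). A rise at an unadjusted p under 0.05 was found in 0 by edgeR, DESeq2 and limma-voom, all run on the same 6 libraries. The share of all genes that rose at that threshold was not counted. ANAPC5 fell 1.48-fold to 182 ± 23.0 CPM (edgeR adjusted p = 0.00396), and CDC26 fell 1.58-fold to 32.0 ± 6.18 CPM (edgeR adjusted p = 0.0102). ANAPC1 and ANAPC16 fell 1.25-fold and 1.22-fold, and their calls ended without any of at least 4 libraries. Partners of the complex split into 3 lower and 3 higher of 8 (median 0.01). FZR1, described above, UBE2S, which extends the ubiquitin chains that UBE2C starts, and MAD2L1BP, which takes apart the checkpoint complex, rose 1.90-fold, 1.31-fold and 1.698-fold. BUB1B and MAD2L1, which are parts of that complex and hold CDC20 back, fell 1.67-fold and 1.53-fold, and BUB3 fell 1.203-fold. The UBE2S call ended without ASO replicate 1 or 3, the BUB1B call without NC replicate 2 or ASO replicate 3, and the BUB3 call without any of 4 libraries.

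Separase and cohesin genes, which act downstream of securin, had 6 lower and 1 higher of 11 (median -0.58). SMC3, a core cohesin subunit, fell 2.91-fold from 75.3 ± 12.8 to 25.9 ± 7.24 CPM (edgeR adjusted p = 0.000992). STAG2 fell 2.11-fold and RAD21, the subunit that separase cuts, 1.77-fold (edgeR adjusted p = 0.0107 and 0.00688). CDCA5, which encodes sororin and keeps cohesin on chromosomes, rose 1.68-fold to 283 ± 19.1 CPM (edgeR adjusted p = 0.00034). STAG1 and PDS5A fell 1.49-fold and 1.60-fold with calls that ended when single libraries were left out. ESPL1, the separase gene, was at 164 ± 16.1 CPM in NC, with 187 ± 20.4 CPM in ASO and did not pass.

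Of 15 genes of the transcription factors known to act on late cell cycle promoters, 4 fell, 1 rose and 10 did not pass (median -0.12). FOXM1 was at 336 ± 19.9 CPM in NC, with 309 ± 28.5 CPM in ASO, and MYBL2 at 449 ± 37.3 and 467 ± 52.4 CPM, neither of which passed. RBL2, a pocket protein of the retinoblastoma family, fell 1.94-fold (edgeR adjusted p = 0.000431). NFYB, a subunit of the factor that binds CCAAT, fell 2.39-fold from 13.4 ± 1.96 to 5.61 ± 2.54 CPM (edgeR adjusted p = 0.0124, and 0.0502 without ASO replicate 3). NFYA and NFYC, the other subunits, did not pass, at 62.5 ± 8.24 and 56.1 ± 5.54 CPM in ASO. E2F4 rose 1.37-fold (edgeR adjusted p = 0.0137, and 0.0588 without ASO replicate 3), while TFDP1 and RBBP4 fell 1.21-fold and 1.36-fold with calls that ended without any of 3 libraries.

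Genes of the passage from G1 to S phase gave 6 lower and 1 higher of 16 (median -0.22). MCM4, MCM6 and MCM3 of the replicative helicase fell 1.51-fold, 1.40-fold and 1.28-fold (the MCM3 call ended without ASO replicate 3, at an edgeR adjusted p of 0.0515), and TYMS and PCNA fell 1.43-fold and 1.36-fold. CDT1, a licensing factor, rose 1.62-fold (edgeR adjusted p = 0.00582). CCNE1 and E2F1 did not pass, at 15.2 ± 1.81 and 104 ± 11.9 CPM in ASO. For comparison, DLGAP5, the mitotic gene of the series title, was at 32.97, 40.4 and 33.5 CPM in NC and 6.97, 16.1 and 10.0 CPM in ASO, and EIF4A1, the gene that hosts SNORA67, fell 2.50-fold (edgeR adjusted p = 1.49e-05). SNORA67 itself was not analysed here.

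**Figure D4:**
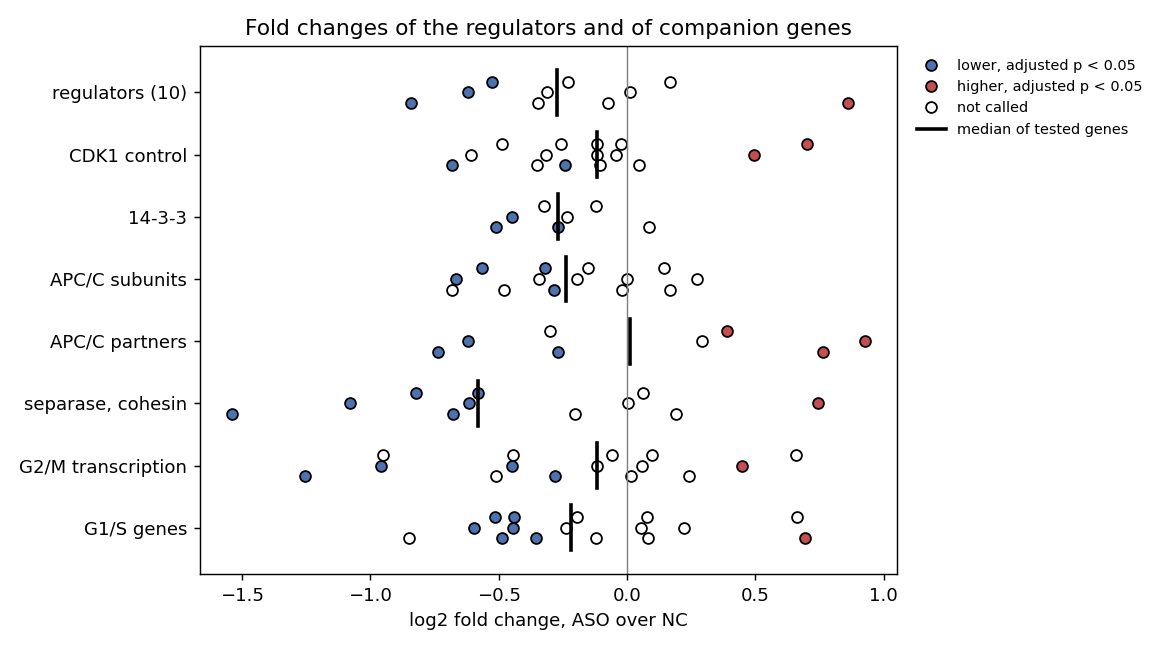
Log2 fold change of ASO over NC (x axis) for the 10 regulators and the tested genes of 7 companion lists, blue where lower and red where higher at an edgeR adjusted p below 0.05, white where not called, with a black bar at each list's median. The cohesin list has the lowest median, -0.58, and the partners of the APC/C have calls on both sides.

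Over all genes, base composition moved with the fold changes. The principal transcripts of the regulators hold from 35.6% GC (CDK1) to 59.3% (CDC25B). CCNB1 (43.2%), CCNB2 (46.0%) and PTTG1 (49.3%), which fell, lie below 50% with CDK1 and CDC25C (46.5%), while CDC25A (51.7%), UBE2C (52.1%), PLK1 (57.3%), CDC20 (57.9%) and CDC25B lie above. CDC25B, with the highest GC content of the 10, had a log2 fold change of -0.23, below those of the other 4 above 50%. Over genes at 1 CPM or more in NC the median log2 fold change went from -0.46 in 1622 genes under 40% GC to 0.15 in 2000 genes at 60% or more. Across the 10 regulators Pearson's r of GC and log2 fold change was 0.38 and Spearman's rho 0.58, as a description across genes that share the same 6 libraries. With the GC and length trend of each library as an offset, CCNB2 (-0.56, edgeR adjusted p = 0.00767) and PTTG1 (-0.46, edgeR adjusted p = 0.000241) were still called lower. The calls of CCNB1 and CDC25A ended, the latter at 0.77 (edgeR adjusted p = 0.0816), and CDK1 and UBE2C were called higher, as given above. What part GC content has in these results was not tested beyond these values.

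**Figure D5:**
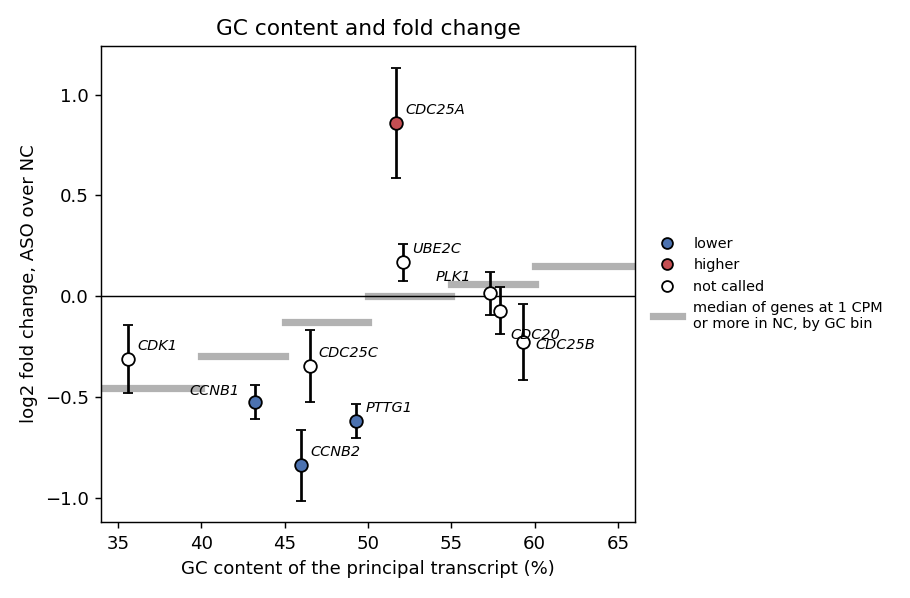
Log2 fold change of ASO over NC (y axis, ± SE) against GC content of the principal transcript in % for the 10 regulators, over grey bars that give the median of genes at 1 CPM or more in NC in each GC bin. CCNB1, CCNB2 and PTTG1 lie below the bar of their bin, as do CDC25B, CDC25C, CDC20 and PLK1, which were not called. CDK1, at 35.6% GC, lies above its bar, as do CDC25A and UBE2C.

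Libraries also differed within the ASO group. ASO replicate 2 has the highest value of its group for CDK1, CCNB1, CCNB2 and CDC25C, all below 50% GC, but also for CDC25A and CDC25B, which are above it. It has the lowest value for PLK1, CDC20 and UBE2C. Genes under 40% GC had a median deviation from the group mean of 0.33 (log2) in ASO replicate 2 and of -0.26 in ASO replicate 1, and genes at 60% GC or more had -0.19 and 0.13. In NC the deviations of genes under 40% GC ran from -0.16 in replicate 3 to 0.20 in replicate 2. The deviations of CDC20 and PLK1 from their group means followed each other (Pearson's r = 0.97 over 6 libraries), those of CDC20 and CDK1 went opposite ways (r = -0.89), and those of CDC25A and CDC25B did as well (r = -0.91), with NC replicate 3 as the farthest library. By Pearson's r over the 6 libraries, the genes most like CDK1 among 9102 others at 10 CPM or more were MTX3 (0.9936), ATE1 (0.9935) and DZIP3 (0.9922), none of which passed the test between groups, and 555 genes had an r over 0.9.

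The NC libraries held 50728524 to 53715905 estimated counts in all, and the ASO libraries 49136502 to 54905215. The value 4 was the most frequent above 0 in every library, as if 1 fragment were worth 4 counts, which would make the libraries 12284126 to 13726304 fragments deep. All 10 regulators lie far above the limit that 3 fragments would set. Of 15 markers of colon epithelium, 7 reached 1 CPM on average in NC and 3 reached 10 CPM, and ESRP1 was at 0 in all 6 libraries. Of the 12 tested, 3 (25%) were called higher in ASO, beside 26.8% of all genes tested. They were LGALS4 (0.0066 ± 0.011 CPM in NC, with 18.05 ± 2.65 CPM in ASO), VIL1 (0.067 ± 0.12 CPM in NC, with 8.88 ± 6.97 CPM in ASO) and KRT19 (0.050 ± 0.087 CPM in NC, with 1.66 ± 0.40 CPM in ASO). These 3 were near 0 in NC and passed the filter on low counts through the ASO libraries, so they could only be called higher. CDX2 was at 0.31 ± 0.17 CPM and EPCAM at 4.37 ± 1.13 CPM in NC, while KRT8 was at 1360 ± 94.3 CPM and the mesenchymal marker VIM at 1201 ± 82.2 CPM (SD, n = 3). Of 13 mesenchymal markers, 9 reached 10 CPM, and their summed level ran from 3203 to 3571 CPM in NC and from 3787 to 4445 CPM in ASO. Of the 12 tested, 4 (33.3%) rose and 4 (33.3%) fell, beside 26.8% and 19.1% of all genes tested. COL5A1, COL1A1, FN1 and COL3A1 rose, while PDGFRB, S100A4, LUM and DCN fell and the median log2 fold change was -0.03. COL3A1, LUM and DCN were low, at 0.58 ± 0.025, 4.53 ± 0.91 and 3.31 ± 0.37 CPM in NC. Of 12 markers of immune, endothelial and blood cells, 0 reached 10 CPM in NC, with a summed level of 10.5 to 12.1 CPM in NC and 17.5 to 24.2 CPM in ASO. Of the 7 tested, 3 (42.9%) were called higher (PECAM1, CD14 and CD163), beside 26.8% of all genes tested. CD163 was at 0 CPM in NC, with 0.42 ± 0.10 CPM in ASO. It passed the filter on low counts through the ASO libraries, so it could only be called higher. PTPRC and CD3E were at 0 in all libraries. The identity of the line rests on its label, and the part of these markers in the results was not tested. In bulk RNA a lower share of cells in mitosis and less RNA per cell cannot be told apart.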

How the data were processed

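Per the submitters' processing notes, FastQC, STAR, StringTie and DESeq2 were used on build hg38; their versions and roles, the annotation release and the strand setting are not stated in those notes or in the labels. The deposited values are the authors' estimated counts per gene, whole numbers with no scaling to depth. The analysis used edgeR 4.0.16, limma 3.58.1 and DESeq2 1.42.0 under R 4.3.3. Genes were kept by filterByExpr (minimum count 10, minimum total 15), which left 14062 of 19655, and libraries were scaled by TMM. ASO was compared with NC by edgeR's robust quasi-likelihood test without a block. The SE is the absolute log2 fold change over the square root of the F statistic. Length and GC come from the principal transcript in GENCODE 29, found for 97.8% of genes. GC and length offsets are robust spline trends of each library, centred so that TMM scaling is kept; the centring was settled after a first version without it had shifted all genes. Named genes are the 10 regulators, EIF4A1, DLGAP5, up to 6 called genes of each companion list by p, and the 3 genes most like CDK1; companion genes given as levels that did not pass, and all markers named, were chosen after their values were seen. The regulators and lists were chosen with earlier results of these data known. Alternatives were other scalings, filters and tools, removal of mitochondrially encoded genes, counts divided by 4, the offsets, the replicate number as a block, and each library left out in turn. The tests were tested on simulated data.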

Additional observations from a re-analysis of the deposited data

How the results depend on the processing

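Under 18 alternatives CCNB2 (log2 fold change -1.03 to -0.56) and PTTG1 (-0.65 to -0.46) stayed called lower in all, and CCNB1 in 16, not with GC and length offsets (-0.14, and -0.15 with the replicate block, edgeR adjusted p = 0.173 and 0.0562). CDC25A stayed above 0 in all 18 and kept its call in 11. Its call ended when low genes were kept (edgeR adjusted p = 0.0546), with the replicate block (0.0567), with the offsets (0.0816, and 0.0759 with the block) and without any single ASO library. The count of regulators that rose was 0 with no filter and 0 with the replicate block, while it was 2 with the offsets, with or without the block, which then were CDK1 and UBE2C. CDC20 was called lower with the offsets and the block together (-0.16, edgeR adjusted p = 0.04). With libraries left out in turn, 3 to 5 regulators fell and 0 to 1 rose, 13 to 36 companion genes fell and 4 to 10 rose, and over all genes 1755 to 3199 fell. With the offsets 18 companion genes rose, with or without the block. Over all genes 4261 rose with the offsets and 4049 with the block added, against 3772 with neither. Leaving out a library leaves fewer samples, and without ASO replicate 2 the genes called were 7126, against 6464 with all libraries. The cause of these shifts was not tested.

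Signs turned for CDK1 with the offsets (0.43, also with the block), and for PLK1 with upper-quartile scaling (-0.0066), library size alone (-0.0048), the offsets (-0.12, also with the block), and without NC replicate 2 (-0.038), ASO replicate 1 (-0.041) or ASO replicate 3 (-0.034). The range of PLK1 over the libraries left out was -0.041 to 0.10. Signs also turned for CDC20 without ASO replicate 2 (0.042, range -0.16 to 0.042), for CDC25B without NC replicate 3 (0.019, range -0.36 to 0.019), for BUB3 with the offsets (0.016, and 0.013 with the block), and for the ratio of CDC25B to CDC25C without NC replicate 2 (-0.046, range -0.046 to 0.33 over the libraries left out). The other 4 ratios kept their sign.

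Whether the replicate numbers pair the libraries is not settled by these values. Deviations from the group means of libraries with the same number correlated at 0.05, 0.19 and 0.02. Those of libraries with different numbers correlated at -0.14 to 0.09. Replicate 2 had the highest median deviation of genes under 40% GC in both groups, 0.20 in NC and 0.33 in ASO. With the replicate block 4 regulators fell, CDC25C added (-0.36, edgeR adjusted p = 0.0471), and 7418 genes passed in all against 6464. Under it 37 companion genes fell and 10 rose, among them all 36 called without it, and of the regulators it changed the calls of CDC25A and CDC25C alone. Not every library correlated best with its own number, since NC replicate 3 did so with ASO replicate 1. The regulators lie far above the counting limit, and the number of libraries, 3 a group, limits the precision of each value.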
